A study of Mus musculus with 36 samples.

Results

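The 78 nuclear genes that carry Mrpl or Mrps symbols, given for proteins of the mitochondrial ribosome, were followed in blood of Townes sickle cell mice. They were picked by symbol alone: every mouse gene named Mrpl or Mrps plus a number, pseudogenes left out, each represented by the RefSeq transcript with the highest total count. All 78 such symbols in the RefSeq table had a transcript among the 25856 counted. They made up 49 Mrpl and 29 Mrps genes out of 16812 gene entries, and all 78 were among the 11953 genes with enough counts to be tested.

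Townes mice are a humanized transgenic model in which human sickle globin is made instead of mouse adult globin. Per the labels, MIR29B or a scrambled control was given by mini-osmotic pump at 2 or 3 mg/kg, with treatment and blood collection dated to weeks 0, 2 and 4. This gave 6 groups on MIR29B and 6 on the scrambled control, one for each dose and week, with 3 libraries a group and 36 in all. The series title describes MIR29B as cholesterol-modified and names DNMT3A as its target in inducing fetal hemoglobin, and the design asks how its dosing altered expression genome-wide. The labels give no age or sex, do not say whether week 0 blood preceded dosing, and do not say which libraries share an animal, so the tests measure the spread between these libraries. Total RNA was depleted of alpha- and beta-globin transcripts before library preparation.

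The mitochondrial ribosome translates the few messages of the mitochondrial genome, which encode core subunits of the respiratory chain. Its RNAs come from mitochondrial DNA, while its proteins are encoded in the nucleus, made in the cytosol and imported. Some of the proteins descend from the bacterial ribosome and the rest were added during mitochondrial evolution. Mature red cells have lost mitochondria, reticulocytes are still clearing them, and white cells and platelets keep them.

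Total counts were 10.7 to 45.65 M per library over all transcripts. Every count in the table was even, and the sources used here do not say why. If both reads of each fragment were counted, every count given here, including the totals and the filter minimum of 10, is 2 times the number of fragments. The counts were used as deposited and no counting intervals are given. The labels call the cells erythrocytes. All 12 red-cell markers had counts in all 36 libraries and summed to 72202 to 167867 CPM (counts scaled to a common library size, here by edgeR's TMM method). Markers of neutrophils summed to 178 to 2973 CPM and those of platelets and megakaryocytes to 194 to 1650 CPM, so transcripts of other blood cells were present. In such bulk blood RNA, fewer cells of a type and less RNA per cell cannot be told apart.

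MIR29B is named for the microRNA miR-29b, whose mature strand is shown because a microRNA pairs with its targets mainly through its seed; the labels do not give the sequence of the oligonucleotide used. The mouse genome encodes mature miR-29b-3p at chr1:195037091-195037113 on the plus strand and at chr6:31063025-31063047 on the minus strand (RefSeq, GRCm38.p6). Bases 2 to 8, the seed, are in capitals.
mmu-miR-29b-3p: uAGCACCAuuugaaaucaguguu
A match to the whole seed followed by A, TGGTGCTA, was present in the annotated GENCODE 3′ UTR of 1 of the 78 genes (1.28%), against 430 of 15161 genes with an annotated 3′ UTR (2.84%). The one gene was Mrpl32, whose site lay at base 1203 of a 2302-base 3′ UTR, at chr13:14609276-14609283 on the minus strand (capitals).
Mrpl32 site: tggttttaaatTGGTGCTAaggaactctac
That site lies 1018 bases beyond the end of the RefSeq gene, so the transcript that was counted need not contain it. Within RefSeq gene boundaries 0 of the 78 genes and 395 of all genes (2.605%) held the match. Counting the shorter 7-base matches as well, 13 of the 78 genes (16.7%) and 2462 of all genes (16.2%) had a site in the GENCODE 3′ UTR.

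Promoters are shown for the 3 genes with RefSeq promoter sequence that rose at week 2 of the scrambled arm and for Mrpl32, the most abundant of the 78. Genes of the mitochondrial ribosome are known to carry binding motifs of ETS factors such as GABP, and of NRF1, regulators of mitochondrial biogenesis. The motif CCGGAAG (ETS) or GCATGCGC (NRF1 core) was searched on both strands from 250 bases before to 50 bases after the gene start, in RefSeq sequence of GRCm38.p6, which held 69 of the 78 genes. CCGGAAG was found in 26 of the 69 promoters (37.7%), against 2683 of all 27025 promoters (9.93%). GCATGCGC was found in 8 of the 69 (11.6%), against 824 of 27025 (3.05%). The 27025 include genes that were not tested here, and the shares among tested genes were not computed. The windows printed run from 100 bases before to 10 bases after the start, on the gene's strand, with either motif or its reverse complement in capitals.
Mrpl52 (chr14:54426809-54426918, plus strand): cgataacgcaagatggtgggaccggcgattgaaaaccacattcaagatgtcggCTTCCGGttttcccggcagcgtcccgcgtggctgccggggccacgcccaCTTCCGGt
Mrpl33 (chr5:31613851-31613960, plus strand): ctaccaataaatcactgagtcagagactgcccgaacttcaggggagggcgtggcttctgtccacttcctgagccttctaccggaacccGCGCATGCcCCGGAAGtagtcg
Mrpl43 (chr19:45006433-45006542, minus strand): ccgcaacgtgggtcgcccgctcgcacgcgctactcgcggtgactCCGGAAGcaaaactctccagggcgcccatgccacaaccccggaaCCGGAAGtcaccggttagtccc
Mrpl32 (chr13:14613028-14613137, minus strand): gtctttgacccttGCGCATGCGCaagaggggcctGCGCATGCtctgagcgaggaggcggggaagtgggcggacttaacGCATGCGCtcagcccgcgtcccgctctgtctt
Mrpl52 and Mrpl43 each held 2 ETS motifs in this window, Mrpl33 had an ETS motif beside an NRF1 core, and Mrpl32 had NRF1 cores, of which the first pair overlap. These are matches of letters in a window and not evidence of binding.

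The 78 genes were expressed at levels that differed widely between genes. Their mean levels per kilobase of transcript ran from 0.236 CPM per kb for Mrpl1 to 112 CPM per kb for Mrpl32, with a median of 2.29 CPM per kb. The median of all tested genes with a length was 0.991 CPM per kb, and that of the cytosolic ribosomal protein genes, which build the ribosome outside mitochondria, was 709 CPM per kb. Lengths are the exon bases of the matched GENCODE transcript inside the RefSeq gene boundaries, which shortened 22 of the 78 transcripts by more than 100 bases. The 78 genes together took 0.0284% to 0.103% of a library's counts, and the 8 most abundant held 51.1% of their counts. Shares of a library's counts, here and below, are of its total over 1 transcript per gene, not over all transcripts.

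**Figure D1:**
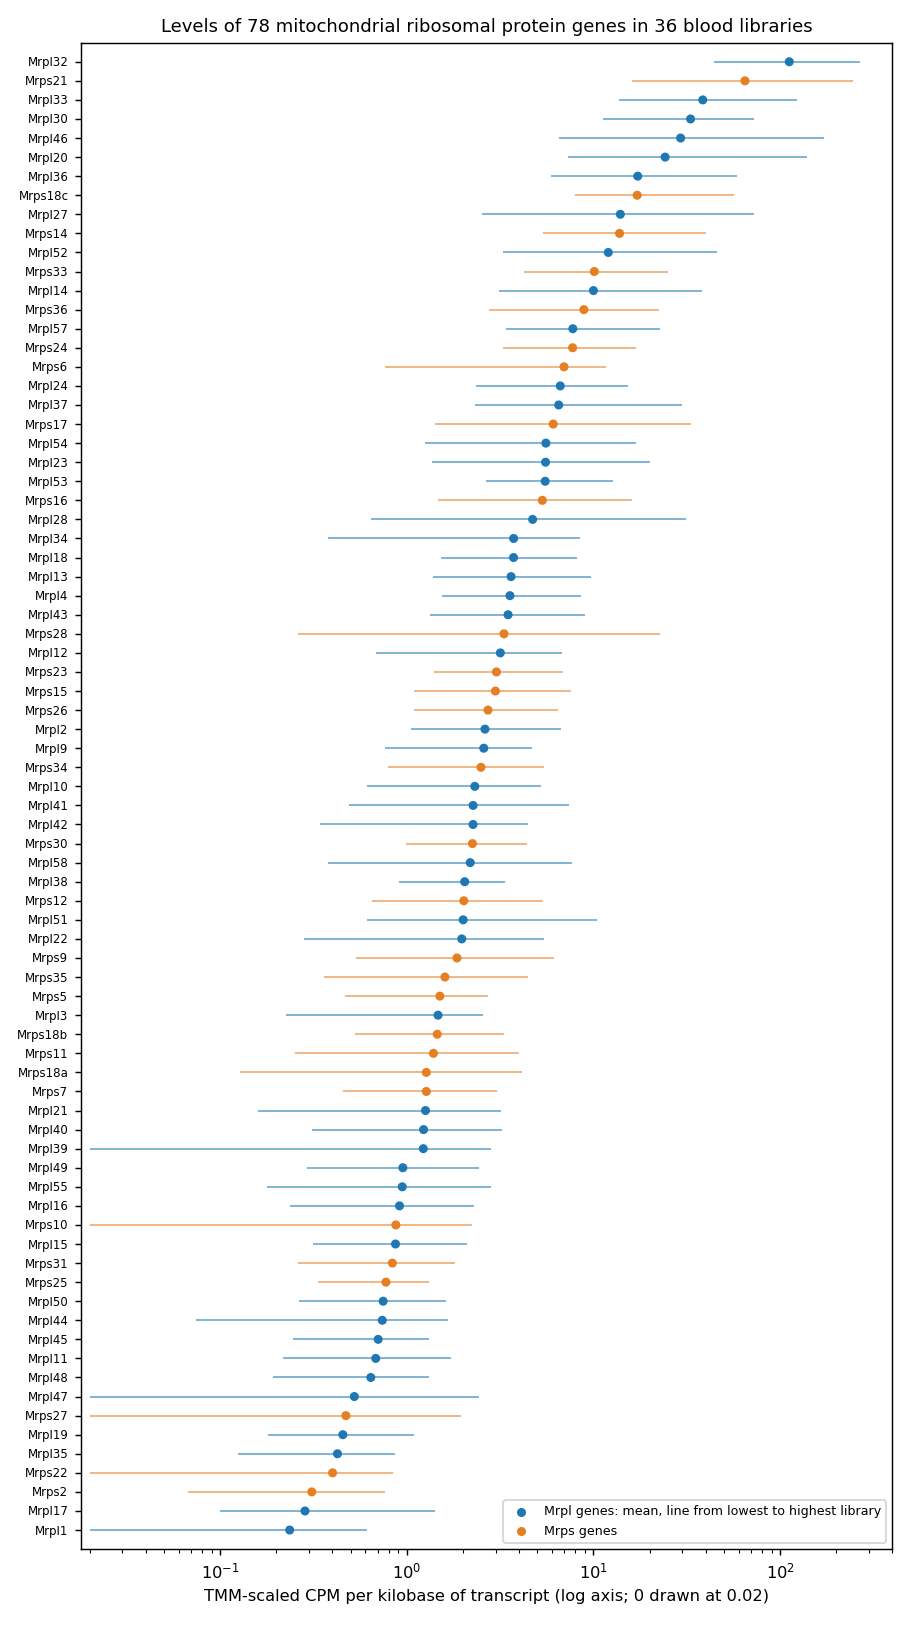
Mean level of each gene over 36 libraries (point) and the range from its lowest to its highest library (line), in TMM-scaled CPM per kilobase on a log axis, ordered by mean; Mrpl genes are blue and Mrps genes orange. Means run from 112 CPM per kb for Mrpl32 to 0.236 CPM per kb for Mrpl1, and lines that reach the left edge belong to genes with 0 counts in at least 1 library.

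Among large-subunit genes, Mrpl32 stood first at 112 ± 42.7 CPM per kb (SD, n = 36 libraries). Its product is cut by the mitochondrial m-AAA protease before it joins the ribosome. Mrpl33 followed at 38.5 ± 23.4, Mrpl30 at 33.2 ± 12.1 and Mrpl46 at 29.3 ± 30.2 CPM per kb. Mrpl32, Mrpl33 and Mrpl30 have bacterial counterparts, whereas Mrpl46 belongs to the proteins added in mitochondria. In the small subunit Mrps21, counterpart of a bacterial small-subunit protein, was highest at 64.8 ± 47.2 CPM per kb. In the order of all 78 genes Mrpl32, Mrps21, Mrpl33, Mrpl30 and Mrpl46 came first, and the mean ± SD of each overlapped that of the next. Among large-subunit genes alone, Mrpl32 lay above Mrpl33 by more than their SDs.

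At the low end were Mrpl35 (0.425 ± 0.180 CPM per kb), Mrps22 (0.401 ± 0.189), Mrps2 (0.310 ± 0.169), Mrpl17 (0.285 ± 0.226) and Mrpl1 (0.236 ± 0.125). Mrps22 is specific to mitochondria and the other 4 have bacterial counterparts. These neighbours did not differ beyond their SDs. Mrps22 had 0 counts in 2 libraries and Mrpl1 in 1. Mrpl47 had 0 counts in 4 libraries, more than any other of the 78, and a median of 6 counts per library, or 3 fragments if each was counted as 2.

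Median levels were close between subunits and between ancestries. The median was 2.32 CPM per kb for the 49 Mrpl genes and 2.25 for the 29 Mrps genes. It was 2.81 for 48 genes with a bacterial counterpart and 2.19 for 29 without one. Mrps36 is in neither of the last lists, since its product is now known as a component of the alpha-ketoglutarate dehydrogenase complex. Likewise Mrps18a and Mrps30 are counted here by symbol as Mrps genes, although their products are now placed in the large subunit.

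The spread of a gene over the 36 libraries, as the SD of its log2 level, ranged from 0.43 to 1.13. It was smallest for Mrpl38 (0.43), Mrpl18 (0.48) and Mrpl48 (0.48), and largest for Mrps28 (1.12), Mrpl46 (1.12) and Mrpl47 (1.13). Mrpl47 also had the fewest counts of the 78, whereas Mrpl46 was second in CPM. The median SD was 0.68 over the 78 genes and 0.78 over all tested genes.

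The paralogs Mrps18a, Mrps18b and Mrps18c, which descend from a single bacterial protein and take different places in the ribosome, had unequal levels. Mrps18c had 17.2 ± 9.12 CPM per kb, Mrps18b 1.46 ± 0.601 and Mrps18a 1.27 ± 0.743 (SD, n = 36). In CPM the lowest Mrps18c library (3.99) was above the highest library of Mrps18b (3.58) and of Mrps18a (3.56). In no comparison of arms or weeks did any of them pass an adjusted p of 0.05 (edgeR's quasi-likelihood test, Benjamini-Hochberg adjustment over 11953 genes).

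**Figure D2:**
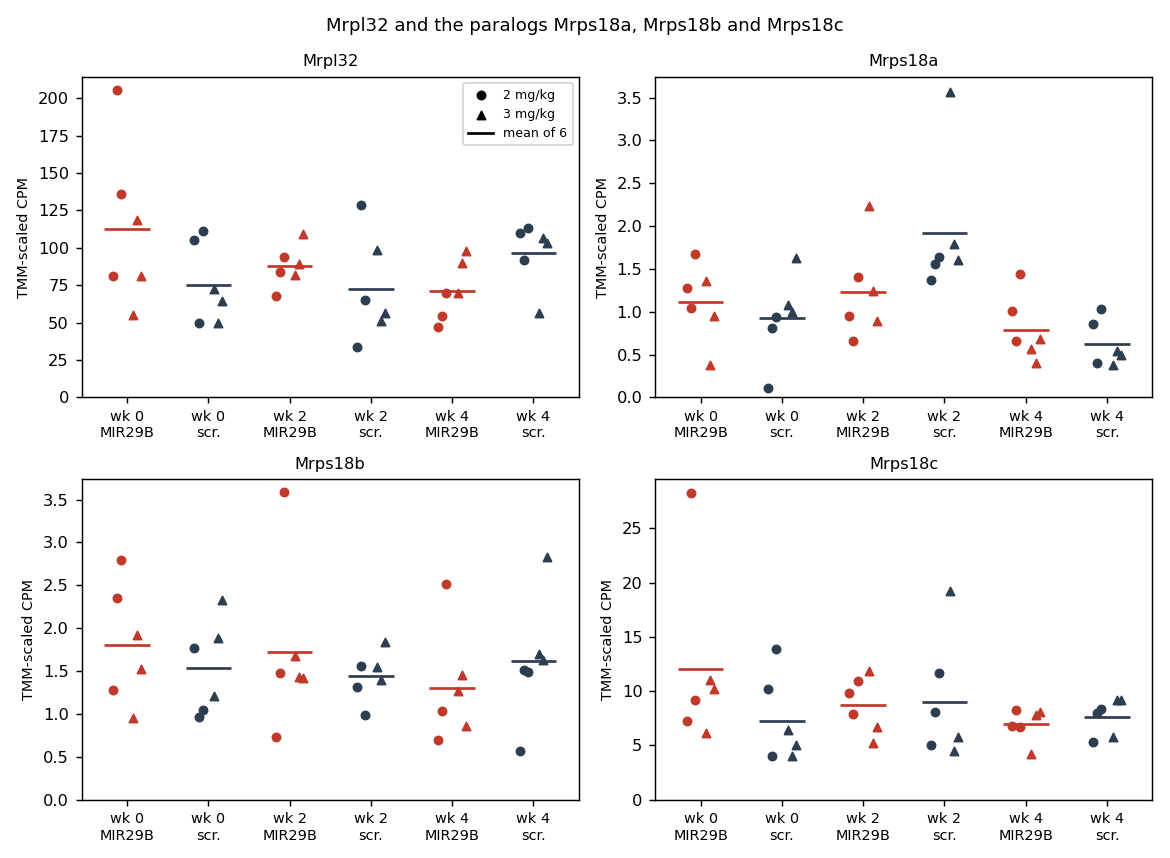
TMM-scaled CPM of Mrpl32 and of the paralogs Mrps18a, Mrps18b and Mrps18c in each of the 36 libraries (circles 2 mg/kg, triangles 3 mg/kg), by week and arm, MIR29B in red and scrambled (scr.) in dark blue, with the mean of 6 libraries as a line. Mrpl32 reached 206 CPM in one week 0 MIR29B library and Mrps18c 28.3 CPM in the same library, and the arms overlap at every week.

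The first question of the design is whether MIR29B altered expression relative to the scrambled control. At week 0, 2 and 4, with the doses averaged (6 libraries against 6), 0 of the 78 genes passed the test in either direction, and 0 of 11953 genes overall (0%). At an unadjusted p under 0.05 there were 9 of the 78 genes at week 0, 6 at week 2 and 2 at week 4, against 852, 1175 and 315 of all genes. DESeq2 called 0 of the 78 at each week, and 0.159%, 0.653% and 0% of all genes at weeks 0, 2 and 4 (0.36% higher and 0.293% lower at week 2, all lower at week 0). The difference between the arms in the change from week 0 was called for 0 of the 78 genes and 0% of all genes at both week 2 and week 4, with 13 and 8 of the 78, and 671 and 721 of all genes, at an unadjusted p under 0.05. DESeq2 called 0 of the 78 and 0% of all genes in both.

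The most abundant gene, Mrpl32, had 54.8, 99.8 and 206 CPM in week 0 MIR29B libraries (lowest, median, highest), against 49.4, 68.3 and 112 CPM in week 0 scrambled libraries. At week 2 it had 68.0, 86.3 and 109 CPM on MIR29B, against 33.9, 60.8 and 129 CPM on scrambled control. At week 4 it had 46.8, 69.6 and 97.8 CPM on MIR29B, against 56.3, 105 and 113 CPM on scrambled control. The arms overlapped at each week. The log2 fold changes of MIR29B over scrambled were 0.56 ± 0.29 (SE) at week 0 (edgeR adjusted p = 0.715), 0.27 ± 0.29 at week 2 (edgeR adjusted p = 0.801) and -0.47 ± 0.29 at week 4 (edgeR adjusted p = 1). The difference between the arms in the change to week 4 was -1.03 ± 0.41 (edgeR adjusted p = 0.78).

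With no gene called, the 3 smallest p-values at each week are named. At week 0 they belonged to Mrpl13, Mrps28 and Mrpl46. Mrpl13, a large-subunit protein with a bacterial counterpart, had 2.55, 3.27 and 5.50 CPM in MIR29B libraries (lowest, median, highest), against 1.33, 2.17 and 3.15 CPM in scrambled libraries. Mrps28, counterpart of a bacterial small-subunit protein, had 0.744, 2.21 and 7.59 CPM on MIR29B, against 0.333, 1.13 and 1.75 CPM on scrambled control. Both pairs of groups overlapped. The log2 fold changes were 0.77 ± 0.33 for Mrpl13, 1.43 ± 0.63 for Mrps28 and 1.32 ± 0.58 for Mrpl46, all with an edgeR adjusted p of 0.687.

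The week 2 genes were Mrpl49, Mrps6 and Mrpl52. Mrpl49, a mitochondria-specific protein of the large subunit, had 0.886, 1.04 and 1.25 CPM in MIR29B libraries, against 0.993, 2.26 and 2.98 CPM in scrambled libraries. Mrps6, whose bacterial counterpart sits in the small subunit, had 3.66, 7.50 and 8.15 CPM on MIR29B, against 0.597, 3.08 and 7.09 CPM on scrambled control. Both overlapped between arms. The log2 fold changes were -1.01 ± 0.38 for Mrpl49 and 0.98 ± 0.37 for Mrps6 (edgeR adjusted p = 0.369 for both), and -0.81 ± 0.37 for Mrpl52 (edgeR adjusted p = 0.461).

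The week 4 genes were Mrpl3, Mrpl21 and Mrps33. Mrpl3, a large-subunit protein with a bacterial counterpart, had 0.344, 1.33 and 2.25 CPM in MIR29B libraries, against 0.722, 2.31 and 3.84 CPM in scrambled libraries. The log2 fold changes were -0.89 ± 0.36 for Mrpl3, 0.96 ± 0.42 for Mrpl21 and -0.61 ± 0.32 for Mrps33, each with an edgeR adjusted p of 1. Mrpl21 turned to -0.27 when the 2 mg/kg dose was tested alone within the same fit.

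The fold changes of the 78 genes, none of them called between arms, are summarised by their medians. For MIR29B over scrambled their median log2 fold change was 0.35 at week 0 with 66 of the 78 above 0, where the median of all genes was -0.05. Leaving out 1 library moved it between 0.23 and 0.47, the lowest without MIR29B replicate 2 at 2 mg/kg. It was -0.19 at week 2 (29 above 0; all genes -0.09), but turned to 0.10 without scrambled replicate 1 at 3 mg/kg and reached -0.31 without MIR29B replicate 3 at 2 mg/kg. At week 4 it was -0.16 (26 above 0; all genes 0.03), between -0.25 without MIR29B replicate 3 at 2 mg/kg and -0.06 without scrambled replicate 3 at 3 mg/kg. The labels do not say whether dosing had begun when the week 0 samples were taken.

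Other signals differed between the arms at week 0 beside the median of 0.35. A transcript length index, the mean log2 level of tested genes at least 4147 nt long minus that of genes at most 1726 nt long, was -1.48 to 0.37 in week 0 MIR29B libraries, against -0.39 to 0.37 in week 0 scrambled libraries. With the index as a covariate the median of the 78 genes was 0.10, with 52 above 0. The index comes from the same expression values. With a median length of 1055 nt, most of the 78 genes fall in its short class. They are a small part of that class, which is the lowest length quartile of 11770 tested genes. Where the index differs between the groups compared, using it as a covariate can remove part of a difference between them, in this and later comparisons. The cytosolic ribosomal protein genes had a median log2 fold change of 0.62, with 84 of 85 above 0 and 0 called, and took 5.97% to 12.3% of the counts in MIR29B libraries, against 5.45% to 7.40% in scrambled libraries. All 12 neutrophil markers had fold changes below 0, of which 8 had an unadjusted p under 0.05 and 0 were called. Their sum was 178 to 619 CPM in MIR29B libraries, against 197 to 1261 CPM in scrambled libraries, with none at 0 in any of these libraries. The part of these cells in the values of the 78 genes was not tested.

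**Figure D3:**
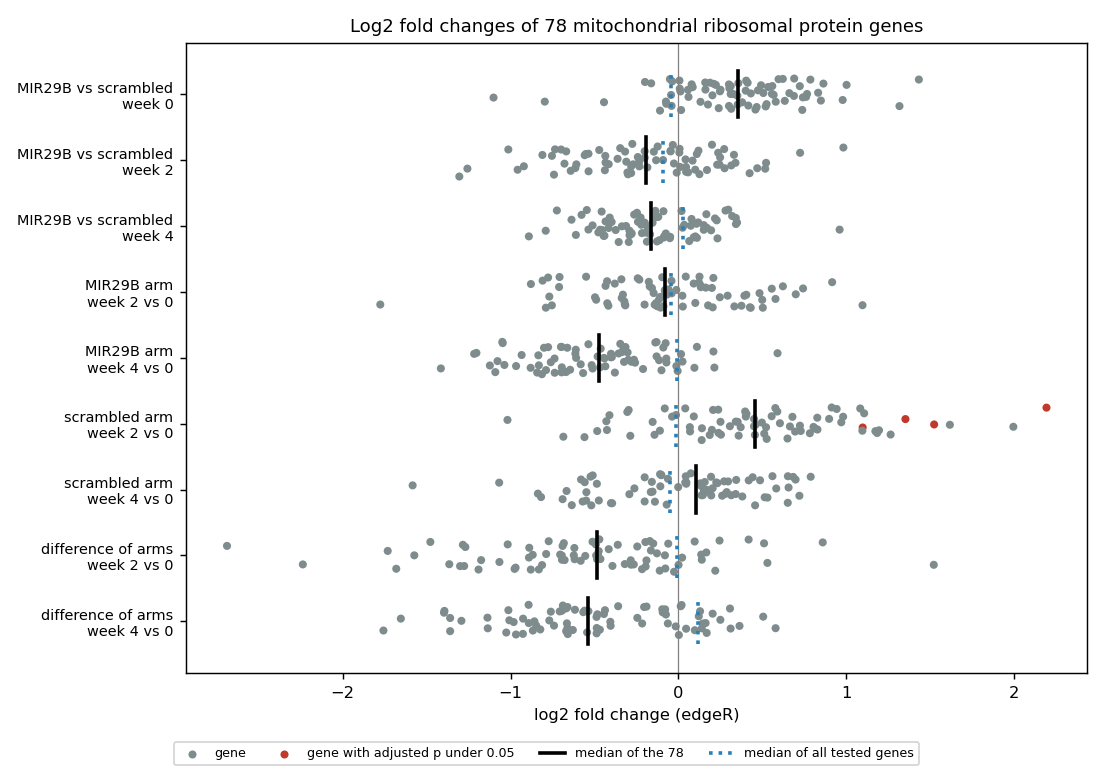
Log2 fold change of each of the 78 genes (points, red where the adjusted p is under 0.05) in 9 comparisons, with the median of the 78 (black line) and of all 11953 tested genes (dotted blue line). Points of the scrambled arm at week 2 against week 0 lie mostly right of 0 (median 0.45) and those of the MIR29B arm at week 4 against week 0 mostly left (median -0.47).

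The weeks were then compared within each arm. At week 2 of the scrambled arm 4 of the 78 genes (Mrpl52, Mrpl33, Mrpl43 and Mrps28) were higher than at week 0 and none was lower, with 2.11% of all genes called higher and 3.21% called in either direction. DESeq2 called 8, all higher, where it called 5.5% of all genes higher and 3.02% lower (8.53% in all). At an unadjusted p under 0.05 there were 18 of the 78 genes (23.1%), against 20.3% of all genes. The median log2 fold change of the 78 was 0.45 with 62 above 0, against -0.01 for all genes. Leaving out 1 library moved this median between 0.16, without week 2 scrambled replicate 1 at 3 mg/kg, and 0.57.

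Mrpl52, a mitochondria-specific protein of the large subunit, had 3.44, 6.89 and 18.9 CPM in week 2 scrambled libraries (lowest, median, highest), against 1.34, 3.25 and 4.57 CPM in week 0 scrambled libraries. The 2 highest week 2 libraries were replicate 1 at 3 mg/kg (18.9) and replicate 3 at 2 mg/kg (13.4), and the lowest fell inside the week 0 range. The means were 9.09 ± 5.94 CPM at week 2 and 3.14 ± 1.06 CPM at week 0 (SD, n = 6 each), a log2 fold change of 1.52 ± 0.37 (SE; edgeR adjusted p = 0.0231).

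Mrpl33, a small protein of the large subunit with a bacterial counterpart, had 12.9, 19.9 and 57.4 CPM at week 2, against 6.43, 11.3 and 15.4 CPM at week 0 of the scrambled arm. The same 2 libraries were highest, with 57.4 and 47.0 CPM, and 1 week 2 library lay below the highest of week 0. The log2 fold change was 1.35 ± 0.38 (edgeR adjusted p = 0.0408).

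Mrpl43, another mitochondria-specific protein of the large subunit, had 3.44, 5.04 and 10.9 CPM at week 2, against 1.61, 2.46 and 4.65 CPM at week 0 of the scrambled arm. The groups overlapped. The log2 fold change was 1.10 ± 0.32 (edgeR adjusted p = 0.0481). Mrpl43 shares exon sequence on the opposite strand with Twnk, the mitochondrial DNA helicase, and the strand setting of the counting is not given in the sources used here.

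Mrps28 had 1.02, 2.07 and 16.4 CPM at week 2, against 0.333, 1.13 and 1.75 CPM at week 0 of the scrambled arm. Replicate 1 at 3 mg/kg (16.4) and replicate 3 at 2 mg/kg (8.35) again stood above the rest, whose values were between 1.02 and 2.30 CPM. The log2 fold change was 2.19 ± 0.63 (edgeR adjusted p = 0.0481). Next in order came Mrpl46, not called, with 7.10, 45.1 and 176 CPM at week 2, against 7.79, 13.2 and 28.7 CPM at week 0, and a log2 fold change of 1.99 ± 0.60 (edgeR adjusted p = 0.0557). Mrpl46 overlaps Mrps11, another of the 78, on the opposite strand.

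**Figure D4:**
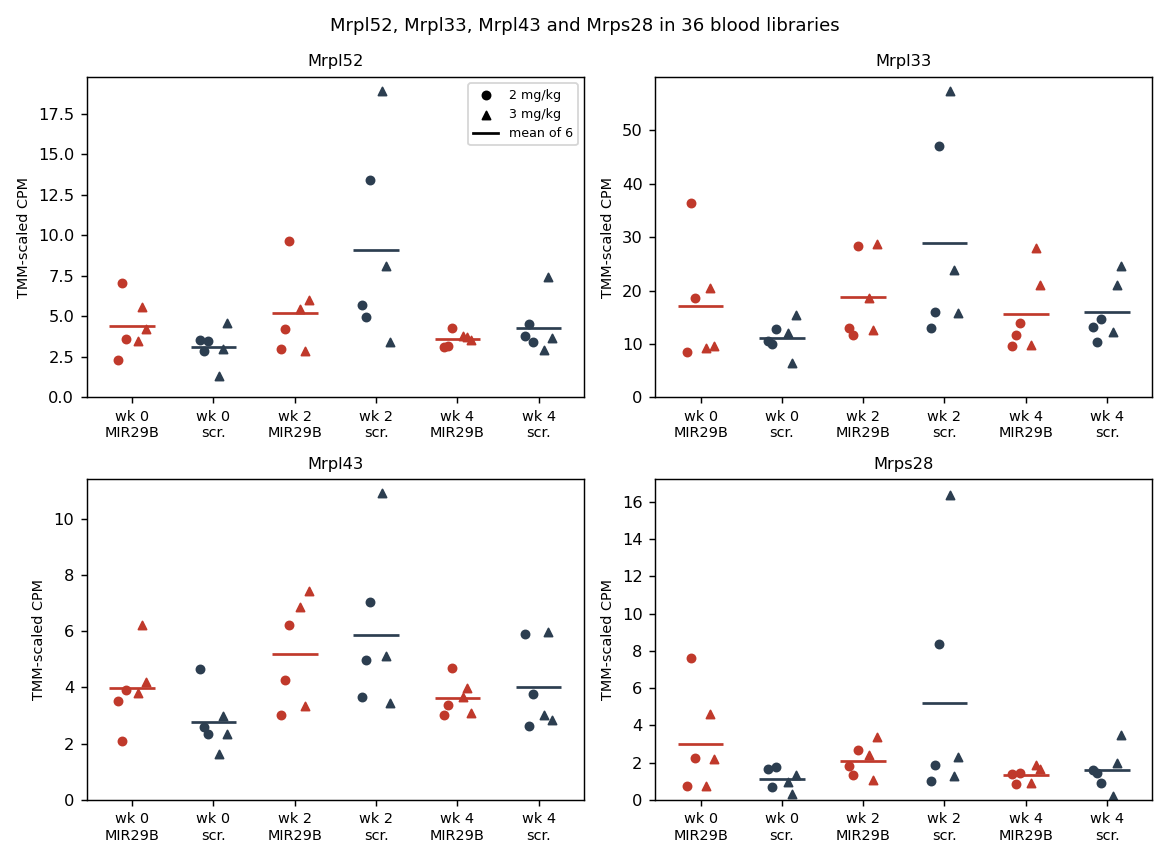
TMM-scaled CPM of Mrpl52, Mrpl33, Mrpl43 and Mrps28 in each of the 36 libraries (circles 2 mg/kg, triangles 3 mg/kg), by week and arm, MIR29B in red and scrambled (scr.) in dark blue, with the mean of 6 libraries as a line. In each panel the highest point is a week 2 scrambled library at 3 mg/kg, with 18.9, 57.4, 10.9 and 16.4 CPM.

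These calls rested on few libraries. The count was 0 without any one of scrambled replicate 3 at 2 mg/kg or replicate 1 at 3 mg/kg of week 2, or of replicate 3 at 2 mg/kg, replicate 1 at 3 mg/kg or replicate 2 at 3 mg/kg of week 0. It was 1 without week 0 replicate 2 at 2 mg/kg (Mrpl52), 2 without week 0 replicate 1 at 2 mg/kg or replicate 3 at 3 mg/kg, and 7 without week 2 replicate 1 at 2 mg/kg. Tested alone within the fit of all 36 libraries, the 2 mg/kg dose gave 0 calls and the 3 mg/kg dose 1, Mrpl37 (named after its value was seen). Mrpl37, a mitochondria-specific protein of the large subunit, had 44.7 CPM in week 2 scrambled replicate 1 at 3 mg/kg. It had 7.12 and 7.50 CPM in replicates 3 and 2 at that dose.

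Library properties moved with these values. The transcript length index was -1.93 to 0.08 in week 2 scrambled libraries, against -0.39 to 0.37 in week 0 scrambled libraries. The cytosolic ribosomal protein genes took 6.13% to 15.8% of the counts at week 2, against 5.45% to 7.40% at week 0. The libraries that were highest for Mrpl52 and Mrpl33 had the lowest indices of the group, -1.93 and -1.25, and the largest cytosolic shares, 15.8% and 9.87%. With the index as a covariate 0 of the 78 genes were called and their median log2 fold change was 0.03, with 40 above 0. As the index itself differed between these weeks, that fit cannot tell a library property from a shared change of the 78 genes. Without the 7 libraries with an index under -1, which remove 3 of 6 week 2 scrambled libraries, 0 were called and the median was -0.02. Split at their median length of 1055 nt, the 38 shorter of the 78 genes had a median of 0.56 and the 40 longer ones 0.40. Most of the 40 are also at most 1726 nt long, so this split does not separate the short and long classes of the index.

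Markers of other blood cells also differed between weeks 2 and 0 of the scrambled arm. Of 12 neutrophil markers 4 were called higher, and their sum was 872 to 2973 CPM at week 2, against 197 to 1261 CPM at week 0, with none at 0 in any of these libraries. Of 9 natural killer cell markers none was called. All 9 had fold changes below 0, and 5 (55.6%) had an unadjusted p under 0.05, against 20.3% of all genes. Their sum was 6.84 to 80.6 CPM at week 2, against 20.7 to 61.3 CPM at week 0, with up to 3 and up to 1 of them at 0 in a library. Monocyte and macrophage markers (1 of 10 called, higher) summed to 441 to 1855 CPM at week 2, against 218 to 861 CPM at week 0. Platelet markers (0 of 10 called) summed to 194 to 1650 CPM at week 2, against 302 to 621 CPM at week 0. The 1650 CPM was in replicate 1 at 3 mg/kg, and the next highest week 2 library, replicate 3 at 2 mg/kg, had 452 CPM. Red-cell markers (1 of 12 called, lower) summed to 72202 to 134604 CPM, against 73636 to 141316 CPM. The part of these cells in the values of the 78 genes was not tested.

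At week 2 of the MIR29B arm 0 of the 78 genes were called against week 0, where 5.44% of all genes were (3.45% higher and 1.99% lower), and 6 of the 78 (7.69%) had an unadjusted p under 0.05, against 20.4% of all genes. DESeq2 called 1, Mrps25, lower, where it called 4.73% of all genes higher and 4.71% lower (9.44% in all). The median log2 fold change was -0.08, against -0.05 for all genes, and leaving out 1 library moved it between -0.29, without week 2 MIR29B replicate 3 at 2 mg/kg, and 0.06, without week 0 MIR29B replicate 2 at 2 mg/kg. The smallest p-values belonged to 3 genes of mitochondria-specific proteins. Mrps25 had 2.02, 3.75 and 4.78 CPM at week 2, against 4.45, 6.02 and 6.97 CPM at week 0, and a log2 fold change of -0.71 ± 0.28 (edgeR adjusted p = 0.137). Mrps34 had 0.92 ± 0.37 (edgeR adjusted p = 0.15) and Mrps30 0.62 ± 0.28 (edgeR adjusted p = 0.202). Mrps34 turned to -0.17 without the 7 libraries with a length index under -1. These include week 2 MIR29B replicate 3 at 2 mg/kg and replicates 1 and 3 at 3 mg/kg, which leaves only replicate 2 at 3 mg/kg. Neutrophil markers (6 of 12 called, higher) summed to 784 to 1718 CPM at week 2, against 178 to 619 CPM at week 0. Monocyte and macrophage markers (2 of 10 called, higher) summed to 363 to 693 CPM, against 254 to 479 CPM. Natural killer cell markers (1 of 9 called, lower) summed to 14.9 to 39.5 CPM, against 29.2 to 110 CPM. Red-cell markers (2 of 12 called higher and 1 lower) summed to 123263 to 147932 CPM, against 80195 to 137423 CPM. The part of these cells was not tested.

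At week 4 of the MIR29B arm 0 of the 78 genes were called against week 0, where 3.09% of all genes were (2.64% higher and 0.443% lower), and 19 of the 78 (24.4%) had an unadjusted p under 0.05, against 17.1% of all genes. DESeq2 called 2, Mrpl3 and Mrps33, both lower, where it called 4.28% of all genes higher and 2.27% lower (6.54% in all). The fold changes had a median of -0.47 with 71 of the 78 below 0, against -0.01 for all genes. The median was -0.57 to -0.38 leaving out 1 library, and -0.27 with the length index as a covariate. Mrpl3 had 0.344, 1.33 and 2.25 CPM in week 4 MIR29B libraries, against 2.38, 3.17 and 3.91 CPM in week 0 MIR29B libraries. These groups did not overlap, and the log2 fold change was -1.22 ± 0.36 (edgeR adjusted p = 0.0549). It was called without week 4 MIR29B replicate 2 at 3 mg/kg, with a log2 fold change of -1.50 (edgeR adjusted p = 0.0213).

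Mrps33, a mitochondria-specific protein of the small subunit, had 5.29, 6.13 and 10.8 CPM at week 4, against 5.30, 13.3 and 26.4 CPM at week 0 of the MIR29B arm. The log2 fold change was -0.97 ± 0.33 (edgeR adjusted p = 0.0947). Mrpl40, mitochondria-specific and in the large subunit, had -1.08 ± 0.41 (edgeR adjusted p = 0.151). Both overlapped between weeks. The length index was -0.70 to 0.46 at week 4, against -1.48 to 0.37 at week 0 of this arm, and the cytosolic ribosomal protein genes took 4.79% to 7.88% of the counts, against 5.97% to 12.3%. Neutrophil markers (3 of 12 called, higher) summed to 555 to 1235 CPM at week 4, against 178 to 619 CPM at week 0, and none was at 0. Monocyte and macrophage markers (2 of 10 called, higher) summed to 541 to 982 CPM at week 4, against 254 to 479 CPM at week 0, with no overlap and none at 0. B-cell markers (1 of 9 called, lower) summed to 63.3 to 193 CPM, against 123 to 254 CPM. The part of these cells was not tested.

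At week 4 of the scrambled arm 0 of the 78 genes were called against week 0, where 0.46% of all genes were, and 1 of the 78 (1.28%) had an unadjusted p under 0.05, against 9.77% of all genes. DESeq2 called 0 of the 78 and 1.2% of all genes (0.786% higher and 0.418% lower). The gene with an unadjusted p under 0.05 was Mrpl58, whose product releases stalled peptides from the mitochondrial ribosome. It had 0.283, 0.639 and 2.17 CPM at week 4, against 1.22, 1.59 and 2.10 CPM at week 0, and a log2 fold change of -1.07 ± 0.48 (edgeR adjusted p = 0.468). Mrps25 (-0.56 ± 0.28) and Mrps5 (-0.58 ± 0.30) followed, with edgeR adjusted p of 0.518 and 0.524. The median over the 78 genes was 0.10, with 44 above 0 (all genes -0.05), and turned to -0.03 without week 4 scrambled replicate 3 at 3 mg/kg.

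When the changes of the arms were set against each other, MIR29B minus scrambled, the 78 genes had a median log2 difference of -0.49 at week 2 with 65 below 0, and of -0.54 at week 4 with 60 below 0. The medians over all genes were -0.01 and 0.12. Leaving out 1 library moved the median of the 78 between -0.70 and -0.23 at week 2, the smallest without week 2 scrambled replicate 1 at 3 mg/kg, and between -0.64 and -0.39 at week 4. The cytosolic ribosomal protein genes had medians of -0.67 at week 2, with 82 of 85 below 0, and -1.004 at week 4, with 83 of 85 below 0, and none of them was called. Both comparisons share the week 0 libraries. The smallest p-values at week 2 belonged to Mrps28 (-2.69 ± 0.88), Mrpl50 (-1.57 ± 0.57) and Mrpl46 (-2.24 ± 0.82), and the edgeR adjusted p-values were 0.838 to 0.852. For week 4 the genes were Mrpl3 (-1.40 ± 0.50), Mrpl32 (-1.03 ± 0.41) and Mrpl14 (-1.36 ± 0.55), each with an edgeR adjusted p of 0.78. With the length index as a covariate the medians were -0.15 at week 2 and -0.08 at week 4.

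The 78 genes were also counted library by library. The number of them above their own median over the 36 libraries ranged from 9 in replicate 1 of week 4 MIR29B at 2 mg/kg to 70 in replicate 3 of week 2 MIR29B at 2 mg/kg. Their summed level ranged from 283 CPM in replicate 1 of week 0 MIR29B at 3 mg/kg to 1157 CPM in replicate 1 of week 2 scrambled control at 3 mg/kg. The libraries of an arm at one week differed widely: in week 4 MIR29B libraries the number ran from 9 to 50, against 13 to 53 in week 4 scrambled libraries. The library with 9 had the highest length index of the 36, 0.46, and the lowest cytosolic ribosomal protein share, 4.79%. All 7 libraries with an index under -1 had at least 55 of the 78 genes above their medians.

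**Figure D5:**
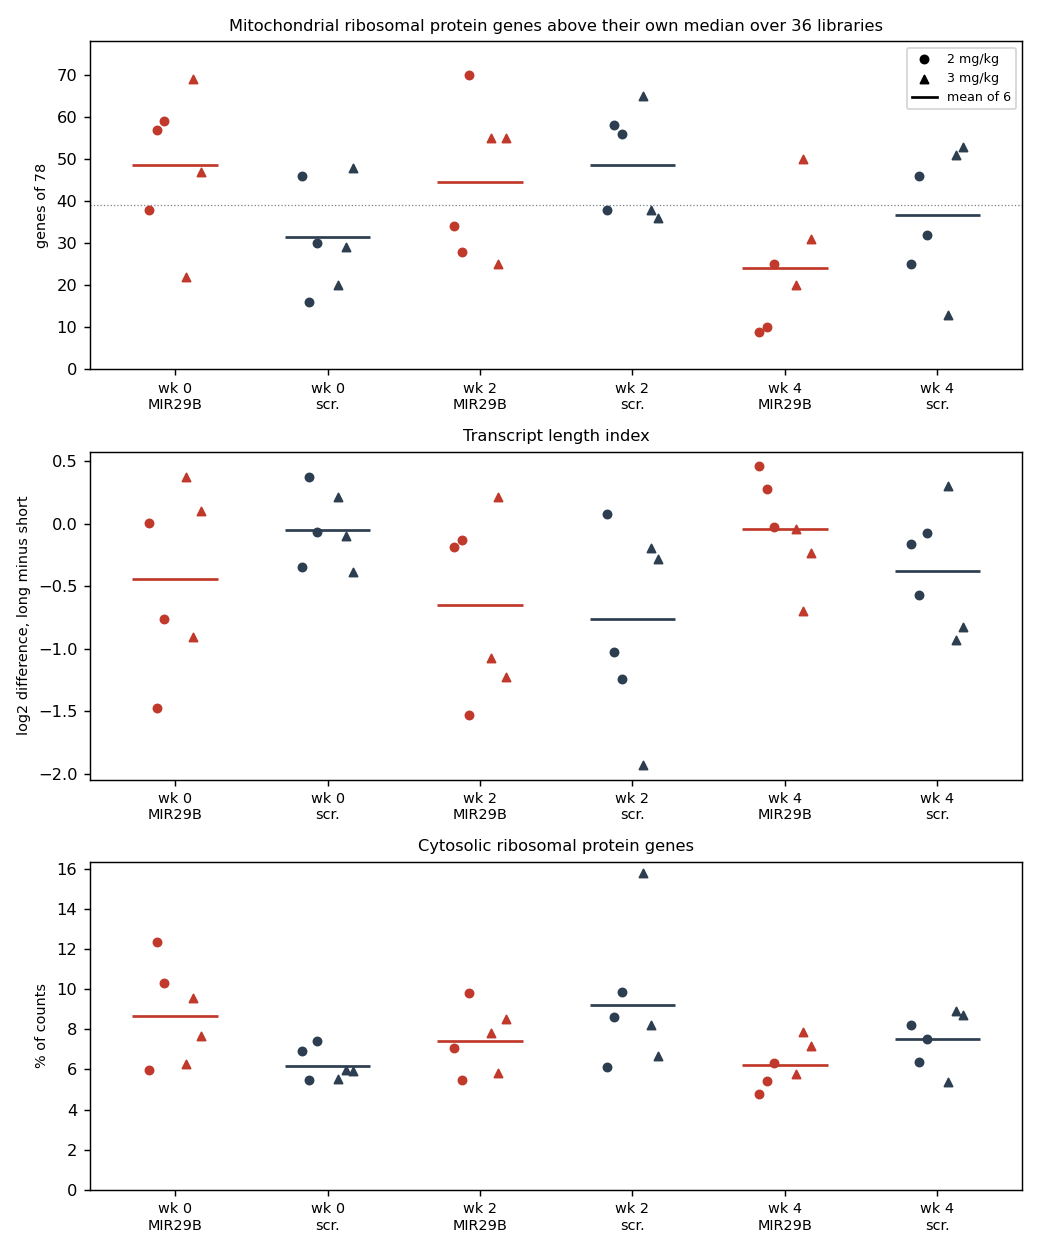
For each of the 36 libraries, by week and arm, MIR29B in red and scrambled (scr.) in dark blue, the number of the 78 genes above their own median over all libraries (top), the transcript length index (middle) and the share of counts from cytosolic ribosomal protein genes (bottom), with the mean of 6 libraries as a line. The extremes of the top panel lie far apart in the middle one: 9 genes go with an index of 0.46, and 70 genes with -1.53.

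Other genes of mitochondrial translation gave few calls. Alternative fits and left-out libraries were not examined for these genes. None of the 5 mitoribosome proteins with other names (Dap3, Ptcd3, Aurkaip1, Chchd1 and Gadd45gip1) passed the test in any of the 9 comparisons. Of 26 assembly and rRNA modification genes, Mterf3, which acts in assembly of the large subunit, fell to 0.677 ± 0.402 CPM at week 2 of the MIR29B arm, against 2.82 ± 0.720 CPM at week 0 (SD, n = 6 each; log2 fold change -2.03 ± 0.41, edgeR adjusted p = 0.00313). At week 4 of that arm Ddx28, an RNA helicase of large-subunit assembly, was higher at 2.55 ± 1.03 CPM, against 0.672 ± 0.410 CPM at week 0 (1.89 ± 0.42, edgeR adjusted p = 0.00645). In the same comparison Ngrn, which acts in mitochondrial rRNA metabolism, was lower at 1.10 ± 0.505 CPM, against 2.55 ± 0.515 CPM (-1.29 ± 0.35, edgeR adjusted p = 0.0314). At week 2 of the MIR29B arm 1 of the 26 genes was called, lower, where 1.99% of all genes were called lower. At week 4 it was 1 higher and 1 lower, where 2.64% of all genes were called higher and 0.443% lower. Mterf3 had 0 CPM in its lowest week 2 library.

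Of 14 tested translation factors, Guf1, an elongation factor-like GTPase, fell to 0.507 ± 0.661 CPM at week 2 of the scrambled arm, against 1.67 ± 0.697 CPM at week 0 (-2.14 ± 0.56, edgeR adjusted p = 0.0343). That was 1 of 14 called lower, where 1.1% of all genes were, and the lowest week 2 library had 0 CPM of Guf1. None of the 19 tRNA synthetases, the 12 genes of mitochondrial DNA transcription and replication or the 8 biogenesis regulators tested was called in any comparison. At week 2 of the scrambled arm, where the 78 genes had a median of 0.45, the medians were -0.17 for assembly genes, -0.54 for translation factors and -0.27 for tRNA synthetases. The 5 mitoribosome proteins with other names had a median of 0.61, with 4 above 0. The cytosolic ribosomal protein genes had a median of 0.75 there, with 3 of 85 called higher. At week 4 of the MIR29B arm the medians were -0.47 for the 78 genes, -0.27, -0.78 and -0.47 for the assembly genes, translation factors and tRNA synthetases, and -0.41 for cytosolic ribosomal protein genes, of which 1 of 85 was called, lower. The 5 mitoribosome proteins with other names had a median of -0.50 in that comparison, with all 5 below 0.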

How the data were processed

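The deposited table holds raw read counts, not normalised, for RefSeq transcripts in 36 libraries. Per the submitters' processing notes, HISAT2 2.0.5, featureCounts 1.5.0-p3 and GRCm38 were used, with no roles stated; annotation release, strand setting and mate handling are not given in the sources used here. Of 25856 rows, 25645 were matched to symbols with a RefSeq table of GRCm38.p6 and 137 with GENCODE; 74 kept no symbol. The transcript with the highest total stood for each gene, 68 of the 78 genes having 1 transcript. Totals over 1 transcript per gene were 6.82 to 31.72 M, of which Rn28s1 and unnamed entries took 2.38% to 21.8%.

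Genes passing filterByExpr (minimum count 10, total 15) were scaled by TMM and fitted in 1 model of 12 groups with edgeR 4.0.16 (R 4.3.3). The two-sided quasi-likelihood F test was adjusted by Benjamini-Hochberg over 11953 genes within a comparison, and a gene was called at an adjusted p under 0.05. SEs were derived from each log2 fold change and its F statistic. The common coefficient of variation was 0.5. CPM are TMM-scaled, and log2 levels used a prior count of 2. The code was tested on simulated data. DESeq2 1.42.0, other scaling, filtering and row choice, single doses, a length covariate, a replicate block and left-out libraries were alternatives.

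Named in each comparison are all called genes or, with none, the 3 smallest p-values, besides the 5 highest and lowest levels, the 3 largest and smallest SDs, the Mrps18 paralogs and called genes of the pathway lists. The 78 genes and the lists were chosen with earlier results of these data known. Same-numbered libraries deviated together (correlation over 0.1) in 11 of 36 pairs of weeks and 9 of 18 pairs of arms. Differently numbered libraries did so in 18 of 72 pairs of weeks and 9 of 36 pairs of arms. The median correlation between arms was 0.08 for same-numbered and -0.04 for differently numbered libraries. These values do not settle whether numbers pair libraries. The labels do not say that they do, so numbers were not taken to pair libraries. Of the 78 genes, 33 overlap exons of another gene, 23 of a coding one. Among the genes named above, Mrps6 (Slc5a3) and Mrps34 (Nme3) overlap a coding gene on the same strand. Mrpl3, Mrpl33 and Mrps18c overlap, on the same strand, a gene not annotated as coding, and further named genes overlap others on the opposite strand.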

Additional observations from a re-analysis of the deposited data

How the results depend on the processing

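At week 2 against week 0 of the scrambled arm the 4 calls among the 78 genes became 0 at 2 mg/kg alone, 1 at 3 mg/kg alone, 7 without the filter on low counts, 2 with all transcripts of a gene summed, 0 without the 8 libraries over 5% Rn28s1 and unnamed entries, 0 with the length index as covariate, 0 without the libraries with an index under -1 (an alternative chosen after seeing the data), 0 with a replicate block and 8 with DESeq2. Leaving out 1 library gave 0 to 7. The count of 0 at week 4 of the MIR29B arm became 1 with RLE scaling or the length covariate (Mrpl3 in both), 5 without the filter and 2 with DESeq2, and 0 to 1 leaving out 1 library. Without the filter, 1 gene (Mrpl46) was called between arms at week 0 and in the difference between arms at week 4, and 2 (Mrpl46 and Mrps28) in that at week 2. Without the libraries with an index under -1, 1 (Mrpl37, higher) was called between arms at week 2, and DESeq2 called 1 (Mrps25) at week 2 of the MIR29B arm. Apart from DESeq2, the share of all genes called in these fits is not given here. A changed count therefore need not be particular to the 78 genes. The cause of these differences was not tested. Of the named fold changes, Mrpl21 between arms at week 4 turned to -0.27 at 2 mg/kg, and Mrps34 at week 2 of the MIR29B arm to -0.17 without the libraries with an index under -1. Leaving out those libraries kept only replicate 1 of week 2 scrambled at 2 mg/kg and only replicate 2 of week 2 MIR29B at 3 mg/kg in these groups. The replicate block changed no other count of calls among the 78. Same-numbered libraries share only a number as far as the labels say. Depth limited the lowest genes: Mrpl47 had a median of 6 counts per library.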
